A study of Mus musculus with 38 samples.

Results

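Histone H3 acetylated at lysine 27 (H3K27ac) was compared between IκBα-KO and IκBα-WT mouse embryonic stem cells (mESCs) in 6 of the 38 samples of the series, the 3 H3K27ac libraries labelled IkappaBalpha-/- (KO) and the 3 labelled IkappaBalpha+/+ (WT). All 6 came from the ES-E14TG2a mESC line, on gelatin in serum with leukaemia inhibitory factor (LIF), at 0 h of differentiation. Each library is of its own clone. In the KO clones Nfkbia, the gene of IκBα, had been cut with Cas9 and a pair of guide RNAs, and the WT clones had received non-targeting guides. Each library had a list of islands, stretches in steps of 200 bp with more ChIP reads than input reads, and 1 WT and 1 KO input (sonicated chromatin without an antibody) served all of them.

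H3K27ac is laid down by the acetyltransferases p300 and CBP on nucleosomes beside active promoters and active enhancers, and it is removed when these elements are shut down. At enhancers it sits together with H3K4me1, which also marks enhancers that are not active. IκBα holds NF-κB dimers in the cytoplasm, and it also has a chromatin-bound pool. mESCs in serum and LIF shift between a naive state, kept by LIF, STAT3 and factors such as Esrrb, Tfcp2l1 and Klf2, and a state closer to the formative and primed epiblast, marked by Dnmt3b, Pou3f1 and Otx2. The study measured H3K27ac to ask whether loss of IκBα also affects distal regulatory elements.

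The guide sites are shown first because they define the KO. Both lie in coding exon 1 of Nfkbia (ENSMUSG00000021025, minus strand, GRCm38 chr12:55489410-55492647), and the capitals mark the 3 bases of the protospacer-adjacent motif in the genome, next to the 20 bases that the guide matches.
Nfkbia gRNA 1, chr12:55492429-55492451, minus strand: gtggacgatcgccacgacagCGG
Nfkbia gRNA 2, chr12:55492460-55492482, plus strand: ccttcttgaggccatcccgcGGG

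The promoters below belong to the 3 naive genes with the highest rise in H3K27ac outside 3 chromosome segments named further on (Tet2, Tfcp2l1, Esrrb) and to the 2 formative and primed genes with the deepest fall that passed the test (Krt18, Dnmt3b). Each is the 250 bases before a RefSeq start site on GRCm38, written 5′ to 3′ along the gene's strand. Capitals mark matches on either strand to any of 5 motifs, which may overlap each other. These were the STAT motif TTCCNGGAA, the octamer ATTTGCAT of Oct factors, the oestrogen-related receptor motif TCAAGGTCA, the GC box GGGCGGG and the κB motif of NF-κB.
Tet2, chr3:133544391-133544640, minus strand: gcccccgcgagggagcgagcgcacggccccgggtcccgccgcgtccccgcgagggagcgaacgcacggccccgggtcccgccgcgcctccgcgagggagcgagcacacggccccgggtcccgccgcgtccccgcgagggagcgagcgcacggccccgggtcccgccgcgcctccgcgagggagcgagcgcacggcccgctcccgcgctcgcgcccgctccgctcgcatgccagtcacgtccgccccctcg
Tfcp2l1, chr1:118627695-118627944, plus strand: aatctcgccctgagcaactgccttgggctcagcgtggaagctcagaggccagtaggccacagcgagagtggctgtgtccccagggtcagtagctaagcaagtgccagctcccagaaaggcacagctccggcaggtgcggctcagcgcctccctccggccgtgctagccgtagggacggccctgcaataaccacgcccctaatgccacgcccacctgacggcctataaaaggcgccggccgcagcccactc
Esrrb, chr12:86421394-86421643, plus strand: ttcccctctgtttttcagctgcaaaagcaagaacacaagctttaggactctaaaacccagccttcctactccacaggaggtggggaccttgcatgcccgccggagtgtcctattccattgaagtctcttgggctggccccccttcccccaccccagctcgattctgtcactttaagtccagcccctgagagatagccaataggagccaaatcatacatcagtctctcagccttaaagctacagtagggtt
Dnmt3b, chr2:153649199-153649448, plus strand: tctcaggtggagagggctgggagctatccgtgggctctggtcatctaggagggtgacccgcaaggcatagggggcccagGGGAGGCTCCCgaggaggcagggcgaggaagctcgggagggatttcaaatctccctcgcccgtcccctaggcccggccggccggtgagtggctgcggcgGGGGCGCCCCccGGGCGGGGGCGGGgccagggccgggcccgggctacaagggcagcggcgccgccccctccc
Krt18, chr15:102027966-102028215, plus strand: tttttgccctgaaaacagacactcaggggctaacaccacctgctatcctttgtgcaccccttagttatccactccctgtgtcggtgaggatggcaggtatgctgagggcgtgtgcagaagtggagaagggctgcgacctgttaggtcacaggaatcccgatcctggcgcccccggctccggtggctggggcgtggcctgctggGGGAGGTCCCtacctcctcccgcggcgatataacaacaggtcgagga

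The Dnmt3b window held GC boxes and κB matches. The Krt18 window held a single κB stretch, which matched on both strands. The other 3 windows held none of the 5 motifs. Of 32851 RefSeq promoter windows of this length, 23.4% held a GC box, 7.25% a κB match, 1.6% the octamer, 0.913% the STAT motif and 0.387% the oestrogen-related receptor motif. The windows differed in base composition, with 51 CpG dinucleotides before Tet2, 16 before Tfcp2l1, 3 before Esrrb, 21 before Dnmt3b and 12 before Krt18.

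Islands on chromosomes 1 to 19 held 60.1 to 63.9 ChIP reads per kb over 377 to 389 Mb in the WT libraries and 58.4 to 68.1 over 407 to 416 Mb in the KO libraries. All 8 mESC markers checked (Pou5f1, Sox2, Nanog, Esrrb, Zfp42, Dppa5a, Tdgf1 and Utf1) had a start site under an island in all 6 libraries. Of the defining genes of other cells, Ptprc, Alb, Ttr and Col1a2 had none in any library, while for example Col1a1, Thy1, Neurod1, Tubb3 and Apoa1 lay under islands in all 6. Input reads per kb were shifted in the KO along chr2:165-171 Mb, chr8:40-129 Mb and chr12:103-119 Mb, by log2 medians of 0.511, 0.505 and -0.967 over the regions called in all 6 libraries there, and H3K27ac in the same regions by 0.347, 0.264 and -0.334. On the rest of each chromosome, the median shift of the input lay between -0.026 and 0.031. Changed genes are therefore named outside these segments, and genes inside them are marked as such.

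A larger share of the H3K27ac reads in islands lay in promoter islands in the KO. Promoter islands, those over the start of a transcript of a protein-coding gene, took 49.7%, 50.7% and 52.6% of the reads in islands in WT replicates 1 to 3, and 56.8%, 56.9% and 56.9% in the KO. Distal islands, over 5 kb from the start of any annotated transcript, took 31.0%, 30.2% and 28.9% in the WT and 25.81%, 25.42% and 25.45% in the KO. Neither pair of groups overlapped. The number of reads in promoter islands was higher in every KO library than in any WT library, while those in distal islands overlapped between the groups (exact permutation p = 0.1 and 0.8). The promoter share was 51.0 ± 1.47% in WT against 56.9 ± 0.0715% in KO libraries, and the distal share 30.0 ± 1.06% against 25.6 ± 0.217% (SD, n = 3 each), with a two-sided exact permutation p of 0.1 for both, the smallest that 3 against 3 libraries can give.

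The covered sequence moved the same way. Promoter islands covered 162, 165 and 177 Mb in the WT and 200, 205 and 204 Mb in the KO, a rise of 20.8% in fewer and wider islands. Their number fell from 15760 ± 212 to 14540 ± 168 and their median width rose from 6200 ± 346 to 7867 ± 306 bp (SD, n = 3 each, exact permutation p = 0.1). The number of distal islands fell by 19.6%, from 25480 ± 1850 to 20500 ± 968, and their covered sequence fell by 4.45%, from 134 ± 1.93 to 128 ± 1.01 Mb (SD, n = 3 each, exact permutation p = 0.1). An island that grows over a start site or joins one that holds it changes class, so the classes do not hold the same sequence in both genotypes.

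Read density changed less than covered sequence. In WT replicates 1 to 3 promoter islands held 69.7, 71.8 and 73.9 ChIP reads per kb, and in the KO 78.8, 78.1 and 67.0. Distal islands held 51.8, 53.1 and 54.3 in the WT and 55.8, 55.5 and 48.3 in the KO. In both classes KO replicate 3 was below every WT library and the other KO libraries above them, so the groups overlapped (exact permutation p = 0.6 and 1). The ratio of the promoter to the distal density was 1.345, 1.352 and 1.362 in the WT and 1.412, 1.406 and 1.387 in the KO. A factor common to all reads of a library cancels in it, but background reads and the extent of islands do not. The ratio was higher in all 3 KO libraries, at 1.40 ± 0.0131 against 1.35 ± 0.00846 (SD, n = 3 each, a difference of 3.57%, exact permutation p = 0.1). With scaled input subtracted, it was 1.761, 1.753 and 1.759 in the WT and 1.834, 1.825 and 1.948 in the KO. For H3K4me1, a mark with its own libraries, the ratio was 1.23 ± 0.00232 in WT and 1.24 ± 0.00141 in KO libraries (SD, n = 3 each, exact permutation p = 0.1), a difference of 1.38%. When the median over islands replaced total reads over total kb, the H3K27ac ratio was 1.266 to 1.287 in the WT and 1.267 to 1.283 in the KO (exact permutation p = 1), and the groups overlapped.

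**Figure D1:**
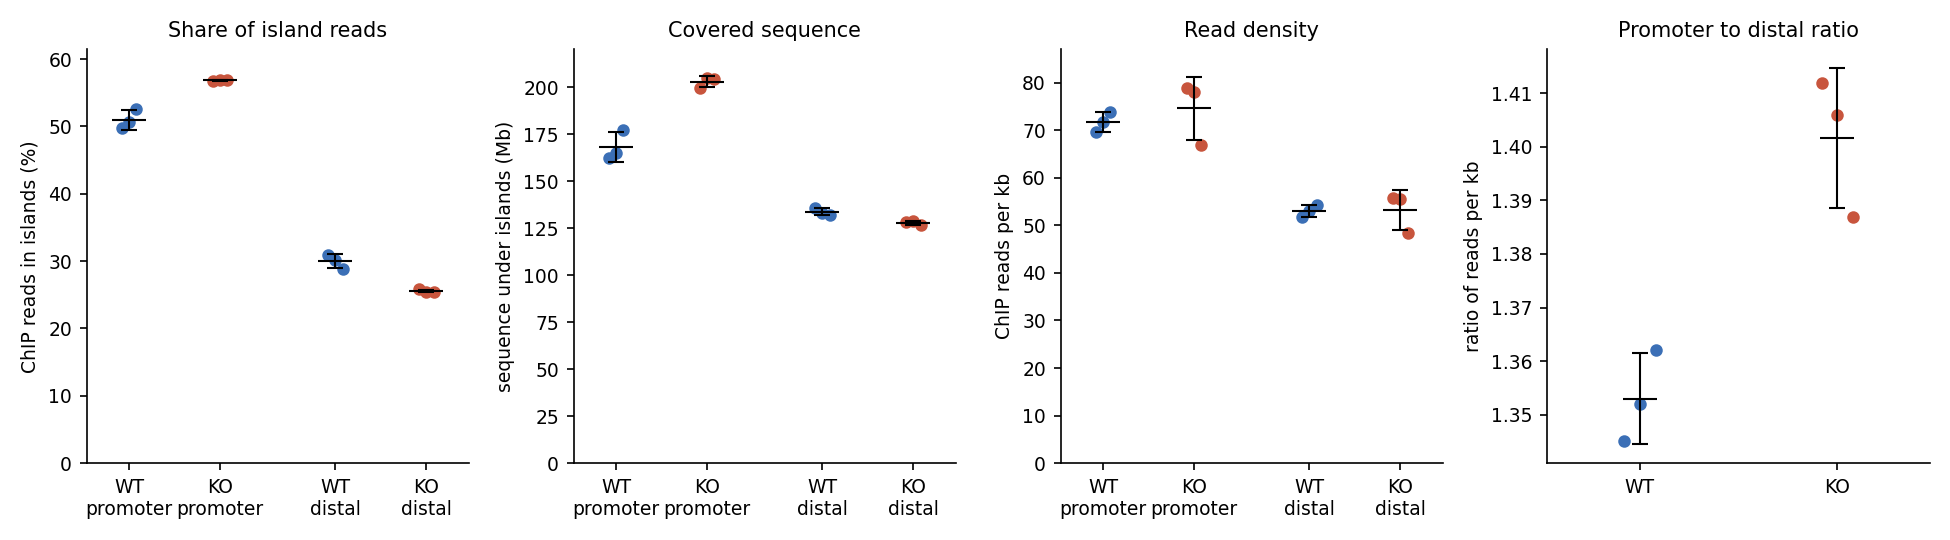
H3K27ac islands in the 3 WT (blue) and 3 KO (red) libraries: share of ChIP reads (%), covered sequence (Mb), ChIP reads per kb, and the ratio of promoter to distal reads per kb. Points are libraries, and black bars are means with SD. The last axis does not start at 0. The KO libraries sit apart from the WT libraries in the share of reads, the covered sequence and the ratio, and overlap with them in density.

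Reads were then compared region by region. The islands of the 6 lists merged into 49043 regions, of which 23580 were called in all 6 libraries and 4010 also had a like covered length in all 6, the shortest at least 0.8 of the longest. In these 4010, reads per kb were compared with edgeR's quasi-likelihood test, with TMM scaling and the covered length as an offset, at a Benjamini-Hochberg adjusted p under 0.05. Promoter regions split towards higher H3K27ac in the KO and distal regions towards lower. Of 2723 promoter regions, 720 (26.4%) were higher and 500 (18.4%) lower, and of 747 distal regions, 114 (15.3%) were higher and 250 (33.5%) lower. The median log2 fold change was 0.01 over all promoter regions and -0.06 over all distal regions.

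The changes were small. The median log2 fold change of the called promoter regions was 0.14 among those higher and -0.15 among those lower, and for distal regions it was 0.21 and -0.26. Of 1220 called promoter regions, 27 changed by over 0.5 on the log2 scale and 0 by over 1. All 20 of these that were higher, and 1 that was lower, lie in the segments with shifted input, and outside them 6 were lower. Of 364 called distal regions, 25 changed by over 0.5 and 1 by over 1, and outside the segments these were 2 higher and 20 lower. Width went with direction: promoter regions that were higher had a median width of 57000 bp and those lower 35700 bp, against 40400 bp over all tested, and distal regions 17100 and 9400 bp, against 11200 bp. With distal regions over 20 kb from any start, 31 were higher and 149 lower of 351. Without TMM, with the total ChIP reads of a list as its size, the log2 fold changes shifted by a median of -0.10, and the split became 233 higher and 1463 lower for promoter regions and 51 and 435 for distal regions. The medians of both classes moved by -0.102, to -0.161 for distal and -0.095 for promoter regions. This setting changes only the size of each library, so it does not test the order of the classes.

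**Figure D2:**
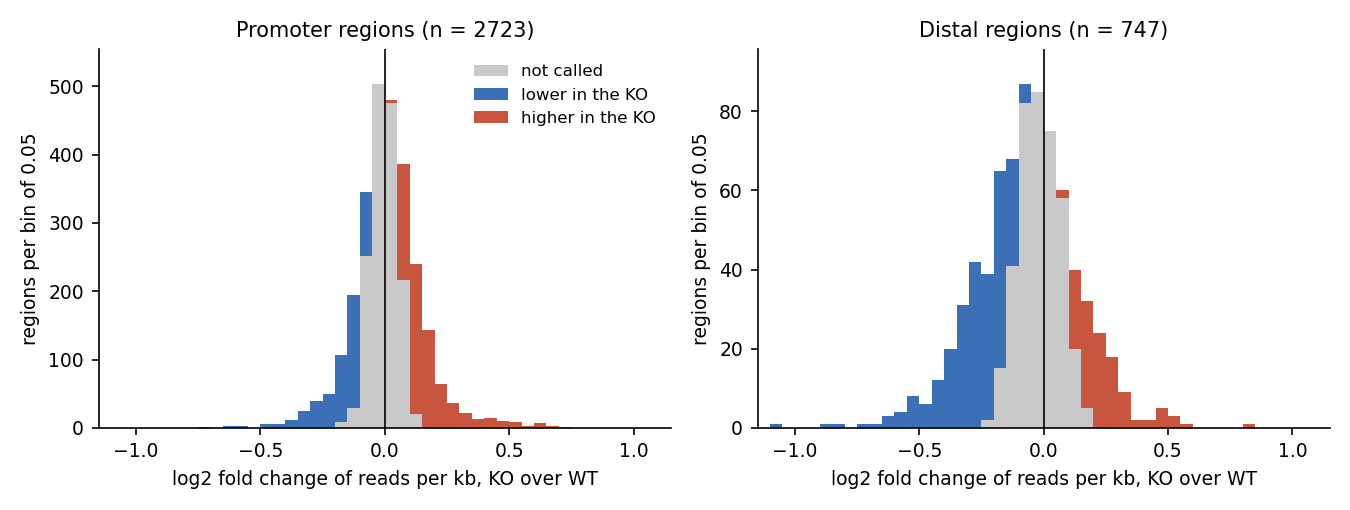
Number of merged regions of like length per bin of 0.05 in log2 fold change of H3K27ac reads per kb, KO over WT, for 2723 promoter and 747 distal regions. Colours show the edgeR call (adjusted p under 0.05): grey not called, blue lower, red higher in the KO. Calls lean to the right of 0 for promoter regions and to the left for distal regions.

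Naive pluripotency genes carried more H3K27ac in the KO. Of 23 listed genes, 21 had their start site in a region called in all 6 libraries, and of these 13 were higher in the KO and 2 lower, in a second edgeR quasi-likelihood fit over all 23580 such regions. Over all 12497 protein-coding genes measured in this fit, 18.5% were higher and 3.8% lower, against 61.9% and 9.52% of the naive list. Regions called higher were wide, and so were the naive regions. Their median width outside the segments was 46.2 kb, against 16400 bp over all promoter regions of the fit and 51600 bp for those higher. Whether width accounts for the share was not tested. The median log2 fold change was 0.19 over the naive genes and 0.02 over all genes. Klf2, Zfp42 and Tcl1 lie in the segments, and without these 12 of 18 were higher, 2 were lower and the median was 0.19. The study itself draws attention to Tbx3, Tfcp2l1 and Zfp42 for this mark, so the list is not independent evidence of its direction. Zfp42, a zinc-finger marker of mESCs, had 156, 152 and 146 scaled reads per kb in the WT and 163, 156 and 212 in the KO, overlapping groups (log2 fold change 0.22, edgeR adjusted p = 0.167), with input higher by log2 0.50. Its region spans 36.8 kb, the shortest covered length being 0.571 of the longest. The study tested fixed windows instead, so this value is not a repeat of its measure. The fits differ in scale, and a region common to both reads 0.06 higher in the second.

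Klf2, a Krüppel-like factor of the naive network, had 97.5, 102 and 101 scaled reads per kb in the WT and 173, 173 and 172 in the KO. This was the list's highest log2 fold change, 0.79 ± 0.02 (SE, edgeR quasi-likelihood, adjusted p = 2.07e-09), but the region lies in the chromosome 8 segment, where its input was higher by log2 0.54. Tet2, which oxidises 5-methylcytosine, had 106, 107 and 108 scaled reads per kb in the WT and 141, 137 and 145 in the KO, with input differing by log2 0.02. Its log2 fold change was 0.40 ± 0.03 (SE, edgeR adjusted p = 3.94e-06). Tfcp2l1, a LIF and STAT3 target that maintains the naive state, had 88.7, 91.6 and 87.4 in the WT and 117, 119 and 114 in the KO over a region of 86.4 kb. The log2 fold change was 0.38 ± 0.02 (SE, edgeR adjusted p = 1.29e-06). Esrrb, an orphan nuclear receptor of the same network, had 105, 109 and 107 in the WT and 131, 127 and 131 in the KO, a log2 fold change of 0.27 ± 0.02 (SE, edgeR adjusted p = 6.78e-06). For all 4 genes, named for their large called rises, every KO library was above every WT library. Groups lay apart, in either direction, at 3686 of the 11102 promoter regions of this fit.

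Lifr and Il6st, which encode the chains of the LIF receptor, rose by log2 0.15 and 0.25, and Socs3, a feedback inhibitor of LIF signalling, rose by log2 0.26 (edgeR adjusted p = 0.000339, 0.000459 and 7.70e-06). Il6st had 58.5, 56.6 and 57.0 scaled reads per kb in the WT and 65.7, 68.2 and 71.6 in the KO. Stat3, the transcription factor that LIF activates, did not pass, with 49.5 to 53.5 in the WT and 53.0 to 53.7 in the KO (log2 fold change 0.04, adjusted p = 0.529). Tdh, the threonine dehydrogenase of mESCs, and Tbx3, a T-box factor of the naive state, rose by log2 0.23 and 0.20. These rises depend on the scaling. With total ChIP reads and no TMM, log2 fold changes in this fit shifted by a median of -0.16, more than the rise at Lifr. The naive list then had 5 genes higher and 4 lower. The 2 genes that fell were Dppa3, which protects methylation in the zygote and early embryo, and Dppa5a, an RNA-binding protein of mESCs. Dppa3 had 69.5, 77.5 and 78.4 scaled reads per kb in the WT and 65.4, 58.7 and 61.5 in the KO (log2 fold change -0.28 ± 0.07, SE, edgeR adjusted p = 0.0184), and Dppa5a had 152, 142 and 145 in the WT and 135, 137 and 129 in the KO. In the regions of like length Dppa3 was at -0.34 (edgeR adjusted p = 2.13e-06), and Dppa5a was not tested there. In the fit of all regions Dppa3 did not pass without KO replicate 2 (-0.24, edgeR adjusted p = 0.0778), KO replicate 3 (-0.28, 0.0561), WT replicate 2 (-0.26, 0.0685) or WT replicate 3 (-0.25, 0.0673), and without 1 library 0 to 1 naive genes were lower.

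Genes of the formative and primed epiblast went the other way. Of 17 listed genes 13 were measured, all of them outside the segments, and of these 1 was higher and 7 were lower, with a median log2 fold change of -0.21. The share lower was 53.8%, against 3.8% of all genes of the fit, and the share higher 7.69%, against 18.5%. This list, like the naive one, was chosen with earlier results of these data known, so it is not independent evidence of its direction. Dnmt3b, a de novo DNA methyltransferase that rises as cells leave the naive state, had 86.8, 89.5 and 92.6 scaled reads per kb in the WT and 69.2, 67.4 and 67.8 in the KO. The log2 fold change was -0.40 ± 0.03 (SE, edgeR adjusted p = 1.34e-05). Krt18, a keratin of epithelial cells, had 59.9, 59.2 and 55.2 in the WT and 40.6, 42.6 and 41.2 in the KO, a log2 fold change of -0.48 ± 0.08 (SE, edgeR adjusted p = 0.00154). Zic2, a zinc-finger factor of the primed epiblast, had 85.6, 90.4 and 94.0 in the WT and 72.3, 77.7 and 72.5 in the KO (log2 fold change -0.28). Lef1 (-0.24), Sfrp2 (-0.22), Grhl2 (-0.16) and Pou3f1 (-0.13) also fell. Krt18, Lef1 and Sfrp2 were not tested in the regions of like length, where 1 gene of the list was higher and 5 were lower of 6. At Dnmt3b, Krt18 and Zic2, named for their large called falls, every KO library lay below every WT library. Groups lay apart, in either direction, at 3686 of the 11102 promoter regions of this fit.

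The 1 member that was higher, Fgf15, shares its region of 119.2 kb with the naive gene Fgf4, so a single value (log2 fold change 0.14) stands for both. T and Foxa2, which the list holds and which mark mesendoderm as well, had log2 fold changes of -0.19 and -0.21 and did not pass (edgeR adjusted p = 0.151 and 0.132), but in the regions of like length T was lower (-0.24, adjusted p = 0.00175). Dnmt3a, the other de novo enzyme, had 102, 57.5 and 61.8 scaled reads per kb in the WT and 54.1, 49.7 and 53.0 in the KO, where WT replicate 1 stands apart (log2 fold change -0.42, edgeR adjusted p = 0.137). The shortest covered length of its region was 0.23 of the longest. Otx2, Fgf5, Cer1 and Sox3 were not measured. With total ChIP reads and no TMM the naive genes split into 5 higher and 4 lower and the formative and primed genes into 0 higher and 11 lower, at medians of 0.03 and -0.37, against -0.16 over all promoter regions. This setting shifts all regions alike, so it does not test the distance of the lists from all promoter regions. Input at the measured genes outside the segments lay between log2 -0.27 and 0.09 for the naive list and between -0.32 and 0.01 for the formative and primed list.

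**Figure D3:**
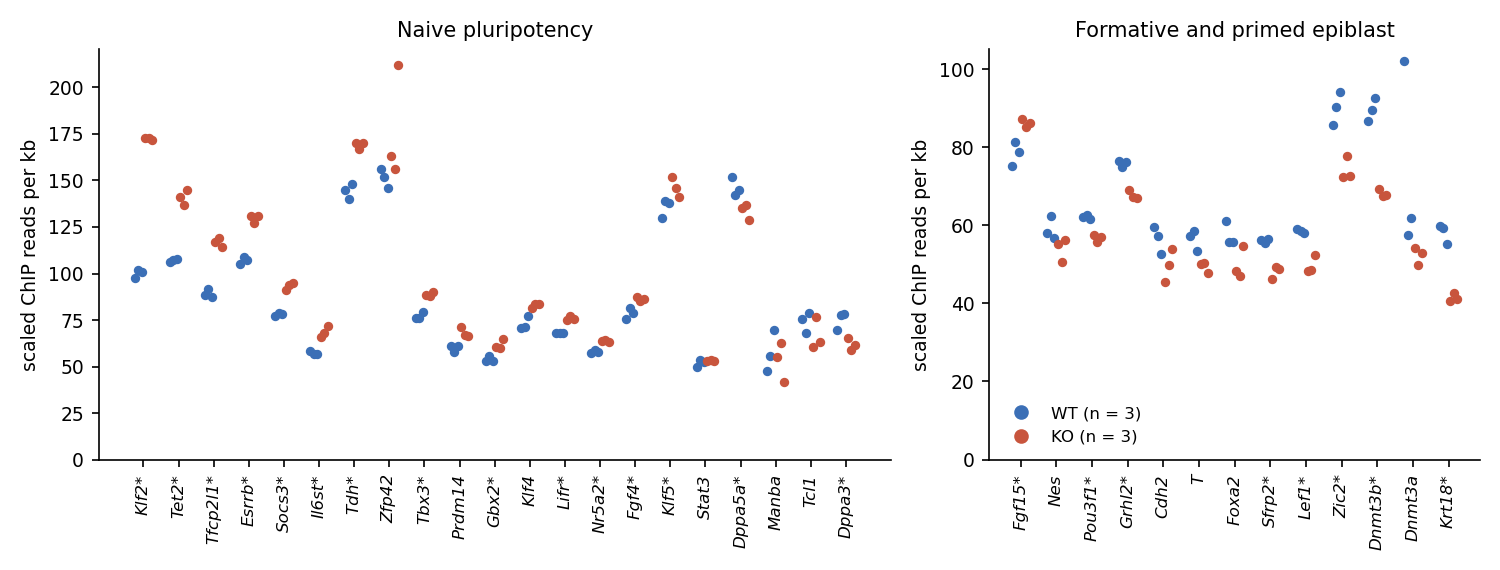
Scaled H3K27ac reads per kb of the region at each measured gene's start site, in 3 WT (blue) and 3 KO (red) libraries, ordered by log2 fold change. A star marks an edgeR adjusted p under 0.05. KO points lie above WT points for most naive genes (left) and below them for most formative and primed genes (right). Klf2, Zfp42 and Tcl1 lie in segments with shifted input.

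Core pluripotency genes, which the naive and primed states share, changed less. Of 11 measured, 5 (45.5%, against 18.5% of all genes) were higher and 0 lower (median log2 fold change 0.07). Pou5f1 had 117, 124 and 125 scaled reads per kb in the WT and 140, 135 and 134 in the KO (log2 fold change 0.16), Tdgf1 rose by 0.16, Dppa2 by 0.24 and Nanog by 0.11. With total ChIP reads and no TMM Pou5f1, Tdgf1 and Dppa2 were at 0.00, 0.00 and 0.08 and did not pass, and with no length offset Tdgf1 (0.09) and Dppa2 (0.11) did not. Sall4 (0.41) lies in the chromosome 2 segment, with input higher by log2 0.45, and was at -0.09 with input as an offset. Sox2 did not pass, with 97.4, 99.3 and 102 in the WT and 97.1, 98.3 and 98.3 in the KO. In the fit of like-length regions Nanog (0.05, edgeR adjusted p = 0.137) did not pass, and 3 of 9 core genes were higher and 2, Sox2 (-0.08) and Lin28a (-0.10), lower. Over all promoter regions of that fit 26.4% were higher and 18.4% lower.

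Of the genes of the NF-κB system, 4 of 10 measured subunits and inhibitors (40.0%, against 18.5% of all genes) were higher and 0 lower. In the regions of like length 4 were higher and 1, Nfkb1 (-0.19, edgeR adjusted p = 0.00621), was lower of 6. Of all promoter regions of like length, 26.4% were higher and 18.4% lower. Nfkbia, the gene cut in the KO, had 69.2, 69.8 and 72.0 scaled reads per kb in the WT and 85.2, 83.3 and 81.6 in the KO, over a region of 128.2 kb that also holds another gene's start. Its log2 fold change was 0.25 ± 0.02 (SE, edgeR adjusted p = 3.57e-05), so the locus still carried H3K27ac in the KO. The mark does not check the genotype, since the guides cut within the coding sequence. Nfkbie, the gene of IκBε, had 94.8, 105 and 100 in the WT and 125, 117 and 120 in the KO (log2 fold change 0.27), in a region that holds the starts of 6 genes, while Relb and Bcl3 rose by 0.13 and 0.12 and were at -0.03 and -0.04 with total ChIP reads and no TMM. Of 20 classical targets of NF-κB, 11 were measured and 7 of these (63.6%) were higher, a share like the 61.9% of the naive list. Their regions outside the segments had a median width of 85.6 kb. Among the 7 were Tnip1 (0.26), Bcl2l1 (0.17) and Junb (0.43), the last in the chromosome 8 segment and at -0.07 with input as an offset. Bcl2l1 was at 0.01 with total ChIP reads and no TMM and did not pass. Vcam1, Cxcl1, Ccl2, Ccl5, Il6 and Tnf had no island over a start site in any library.

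Genes of DNA methylation split into 4 higher (Tet2, Dnmt1, Zfp57 and Uhrf1) and 1 lower (Dnmt3b) of 11, and with total ChIP reads and no TMM Dnmt1 and Zfp57 were at -0.01 and -0.03. These were 36.4% and 9.09% of the list, against 18.5% higher and 3.8% lower over all genes. Genes of FGF and ERK signalling had 4 higher (28.6%) and 1 lower (7.14%) of 14. Their largest change was at Etv4, an ETS factor and ERK target, with 72.9, 77.0 and 74.0 scaled reads per kb in the WT and 106, 104 and 100 in the KO (log2 fold change 0.47), followed by the feedback inhibitors Spry4 (0.29) and Spry2 (0.19, but 0.03 and not past the test with total ChIP reads and no TMM), while Dusp4 fell (-0.21, but 0.04 with no length offset). Wnt, Nodal and BMP genes had 6 higher (30.0%) and 5 lower (25.0%) of 20. Id3 (0.22), Smad7 (0.20) and Id1 (0.18) were among those higher and Id2 (-0.31), Bmpr1a (-0.41) and Smad5 (-0.35) among those lower. With no length offset Bmpr1a and Smad5 were at 0.16 and 0.30. Tgfbr1 fell as well (-0.44), in a region of 2.4 kb where input fell by log2 0.49 in the KO. Dusp4, Bmpr1a, Smad5 and Tgfbr1 each lost the call in fits without 1 library, at log2 fold changes of -0.23 to -0.15, -0.45 to -0.38, -0.34 to -0.31 and -0.45 to -0.40. These were KO replicate 2 or 3 for all 4, KO replicate 1 for Dusp4 and Bmpr1a, WT replicate 1 for Dusp4, Smad5 and Tgfbr1, WT replicate 3 for Dusp4 and Tgfbr1, and WT replicate 2 for Tgfbr1.

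Acetylation writers, erasers and readers had 3 higher (21.4%, near the 18.5% of all genes) and 0 lower of 14. Kat2b, the acetyltransferase PCAF, had 110, 119 and 116 scaled reads per kb in the WT and 140, 137 and 135 in the KO (log2 fold change 0.26). Smarca4, an ATPase of chromatin remodelling, rose by 0.16, but was at 0.00 with total ChIP reads and no TMM. PRC2 genes had 2 higher (Ezh1, 0.29, and Mtf2, 0.12) and 1 lower (Rbbp4, -0.17) of 10. Their share higher, 20.0%, was also near that of all genes, and their share lower was 10.0%, against 3.8%. Ezh1 was at -0.04 with no length offset, Mtf2 at -0.04 with total ChIP reads and no TMM, and Rbbp4 at 0.11 with input as an offset. Ezh1 lost the call without any 1 library but WT replicate 3 (0.21 to 0.33).

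Of imprinted genes, 5 were higher (29.4%, against 18.5% of all genes) and 0 lower of 17, with Peg3 (0.40), Zrsr1 (0.35), Gnas (0.24) and Impact (0.23) leading. Peg3 lost the call without WT replicate 1 (0.32), and Impact without KO replicate 1 (0.19) or WT replicate 2 (0.20). With total ChIP reads and no TMM Peg3 (0.24), Zrsr1 (0.18), Gnas (0.08) and Impact (0.07) did not pass. Of cytosolic ribosomal protein genes, 5 were higher (27.8%) and 0 lower of 18, with a median of -0.02, but in the regions of like length 5 were higher and 6 lower of 15. Of all promoter regions of like length, 26.4% were higher and 18.4% lower. Rpl13 (0.30) lies in the chromosome 8 segment and was at -0.28 with input as an offset, and Rpl19 (0.20), Rps14 (0.19) and Rpl4 (0.18) followed, and with total ChIP reads and no TMM Rpl13 (0.14), Rpl19 (0.04), Rps14 (0.03) and Rpl4 (0.02) did not pass. No gene passed among 6 of primitive endoderm, 9 of mesendoderm and 9 of neuroectoderm, with medians of -0.07, -0.02 and -0.13. In the regions of like length T was lower of 2 mesendoderm genes, and both neuroectoderm genes tested, Pax6 (-0.12) and Sox4 (-0.16), were lower. The 2-cell-like list had no measured gene of 8. Lists share members and regions, such as Icam1 with Dnmt1 and Id1 with Mcts2.

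**Figure D4:**
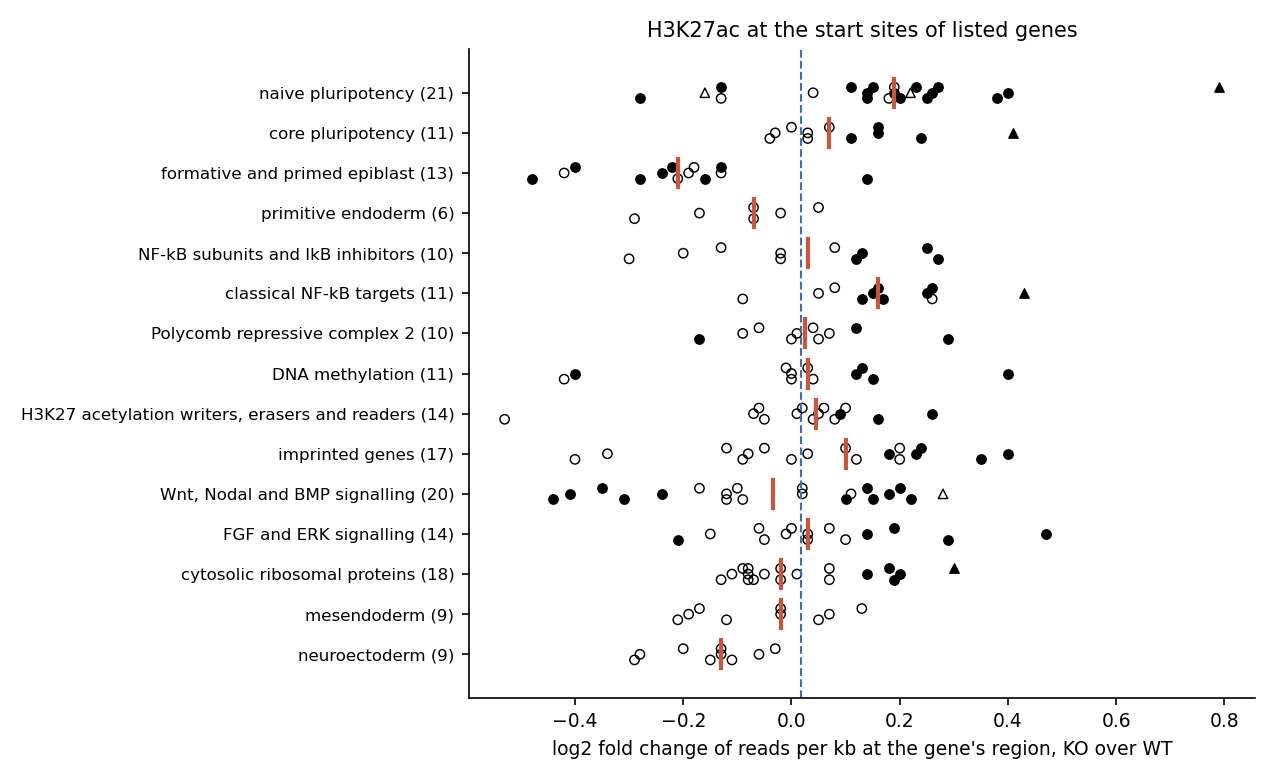
log2 fold change of H3K27ac reads per kb, KO over WT, at the region of each listed gene, with the number measured in brackets. Filled symbols passed an edgeR adjusted p under 0.05, open symbols did not, triangles lie in the segments with shifted input, red lines are list medians and the dashed line is the median of all 12497 genes. The naive list sits to the right of the dashed line and the formative and primed list to its left.

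Among all promoter regions of like length outside the segments, the 10 that rose most spanned log2 0.38 to 0.48, in regions of 24.6 to 133.6 kb. Osbpl10 (ENSMUSG00000040875, chr9:115028601-115062200), a lipid-binding protein of the oxysterol-binding family, had 80.7, 79.2 and 77.2 scaled reads per kb in the WT and 109, 110 and 110 in the KO. Its log2 fold change was 0.48 ± 0.03 (SE, edgeR adjusted p = 4.61e-15). Sik1 (ENSMUSG00000024042, chr17:31801801-31881800), a salt-inducible kinase that restrains CREB coactivators, had 77.9, 74.7 and 78.2 in the WT and 104, 105 and 108 in the KO, a log2 fold change of 0.46 ± 0.02 (SE, edgeR adjusted p = 4.07e-18). Nrp2, a co-receptor for semaphorins and VEGF, had 74.4, 72.3 and 74.3 in the WT and 98.3, 97.7 and 100 in the KO across 133.6 kb. Groups did not overlap in any of the named regions, since the rule for naming asked for it.

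The others that rose were Pole4 (0.41), a subunit of DNA polymerase epsilon, the region of Dhx8 and Etv4 (0.41), that of Prdm16 and Actrt2 (0.41), Slc25a13 (0.40), Ruvbl1 (0.39), Pfkp (0.39) and Fam167a (0.38). Pole4 had the highest level of these, with 109, 114 and 110 scaled reads per kb in the WT and 151, 150 and 142 in the KO. Ruvbl1, an ATPase of chromatin remodelling complexes, had 60.6, 59.7 and 59.7 in the WT and 80.2, 76.6 and 79.7 in the KO. Pfkp, a platelet-type phosphofructokinase of glycolysis, had 68.8, 73.9 and 74.0 in the WT and 95.2, 96.2 and 91.7 in the KO. Input over these 10 regions differed by log2 -0.07 to 0.17, and with input as an offset Pfkp and Fam167a were at 0.25 and 0.15. H3K4me3 peaks overlapped 9 of them in all 6 libraries of that mark, the exception being Osbpl10, in 4. By a looser count, at least 2 libraries of a genotype, they overlapped 84.3% to 91.5% of the tested promoter regions, whether higher, lower or not called. H3K4me1 rose at 5 of the 10 in its own libraries (edgeR adjusted p under 0.05, which 12% of 2716 promoter regions with an H3K4me1 region met), among them Ruvbl1 (log2 0.27) and Slc25a13 (0.20).

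The 10 promoter regions that fell most spanned log2 -0.64 to -0.47, in regions of 1.6 to 29.4 kb. L3mbtl3 (ENSMUSG00000039089, chr10:26373201-26377000), a reader of methylated lysines, had 83.2, 91.6 and 86.2 scaled reads per kb in the WT and 46.4, 60.8 and 60.9 in the KO. The log2 fold change was -0.64 ± 0.08 (SE, edgeR adjusted p = 8.44e-08). Iqgap1 (ENSMUSG00000030536, chr7:80730201-80754400), a scaffold of the cytoskeleton, had 82.4, 81.7 and 85.0 in the WT and 52, 55.9 and 53.6 in the KO. The log2 fold change was -0.63 ± 0.04 (SE, edgeR adjusted p = 3.49e-15), and no H3K4me3 peak overlapped the region in any library. A promoter region here holds the start of any annotated transcript of a gene, which need not be its 5′ end. Of the 2723 tested, 2243 held a 5′ end. The fall is therefore not shown to be at the main promoter of Iqgap1. Dpp4 (ENSMUSG00000035000, chr2:62402201-62413400), a cell-surface peptidase also known as CD26, had 86.6, 82.3 and 89.8 in the WT and 52.7, 61.0 and 56.6 in the KO, a log2 fold change of -0.61 ± 0.06 (SE, edgeR adjusted p = 3.37e-11).

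Lin28b (ENSMUSG00000063804, chr10:45466601-45475000), an RNA-binding protein that blocks let-7 maturation and rises in primed cells, had 85.3, 77.2 and 90.7 scaled reads per kb in the WT and 59.4, 58.3 and 52.7 in the KO. Its log2 fold change was -0.57 ± 0.07 (SE, edgeR adjusted p = 4.72e-09), with input at 37.1 and 36.5 reads per kb. Efna5, an ephrin that guides cells and axons, had 81.9, 82.2 and 73.4 in the WT and 53.1, 57.2 and 60.5 in the KO (log2 fold change -0.48). The rest were 4930452B06Rik (-0.59), Lrrc61 (-0.56), Mier3 (-0.49), a member of an early-response family of transcriptional regulators, and 2300009A05Rik (-0.47). Tgfbr1, the type I receptor for TGF-β, had 78.9, 77.4 and 76.1 in the WT and 61.8, 51.2 and 51.2 in the KO, but its input also fell, from 31.3 to 22.3 reads per kb, and with input as an offset the log2 fold change was -0.08 (edgeR adjusted p = 0.541). The same held for 2300009A05Rik, which was at -0.24 with that offset (edgeR adjusted p = 0.124). All 10 of these regions held the start of a single gene, against 1614 of 2723 promoter regions tested. H3K4me3 peaks overlapped 7 of the 10 in all 6 libraries of that mark.

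Distal regions changed by more. The highest rise was in a region on chromosome 1 (chr1:179642801-179654200), 14010 bp from the nearest protein-coding start, that of Sccpdh. It had 68.3, 65.0 and 68.8 scaled reads per kb in the WT and 120, 124 and 120 in the KO, a log2 fold change of 0.85 ± 0.05 (SE, edgeR adjusted p = 2.58e-17), with inputs of 28.3 and 29.3 reads per kb. A region 63248 bp from Inhbb (chr1:119340801-119359000), the gene of the activin βB subunit, had 59.5, 62.1 and 62.5 in the WT and 88.4, 96.8 and 88.5 in the KO, a log2 fold change of 0.57 ± 0.05 (SE, edgeR adjusted p = 4.27e-13). The others lay 18794 bp from Rab6b (0.46), 116094 bp from Eva1a (0.46) and 10677 bp from Tm2d3 (0.50). The last had an input of 23.3 reads per kb in the WT and 30.6 in the KO, and with input as an offset its log2 fold change was 0.04 (edgeR adjusted p = 0.486).

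The 5 distal regions that fell most spanned log2 -1.07 to -0.70 and 2.2 to 7.0 kb. A region far from any protein-coding gene (chr7:53143201-53145400, 1127473 bp from 1700015G11Rik) had 111, 108 and 124 scaled reads per kb in the WT and 61.4, 51.7 and 49.8 in the KO. Its log2 fold change was -1.07 ± 0.09 (SE, edgeR adjusted p = 4.44e-12), at inputs of 26.3 and 29.2 reads per kb. A region 112841 bp from Cobl (chr11:12577801-12584000), an actin nucleator, had 103, 99.0 and 107 in the WT and 55.6, 56.8 and 58.6 in the KO (log2 fold change -0.86), and its input fell from 32.4 to 25.6. The other 3 lay 211427 bp from Akr1e1 (chr13:4820601-4827600, -0.85), 58125 bp from Sntn (chr14:13729001-13734200, -0.71) and 76123 bp from Zfp804b (chr5:6795801-6800400, -0.70), with input as high in the KO as in the WT or higher. No H3K4me3 peak and no H3K27me3 island overlapped any of these 5 regions in any library. In 3 of them no H3K4me1 region was called in all 6 libraries of that mark.

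**Figure D5:**
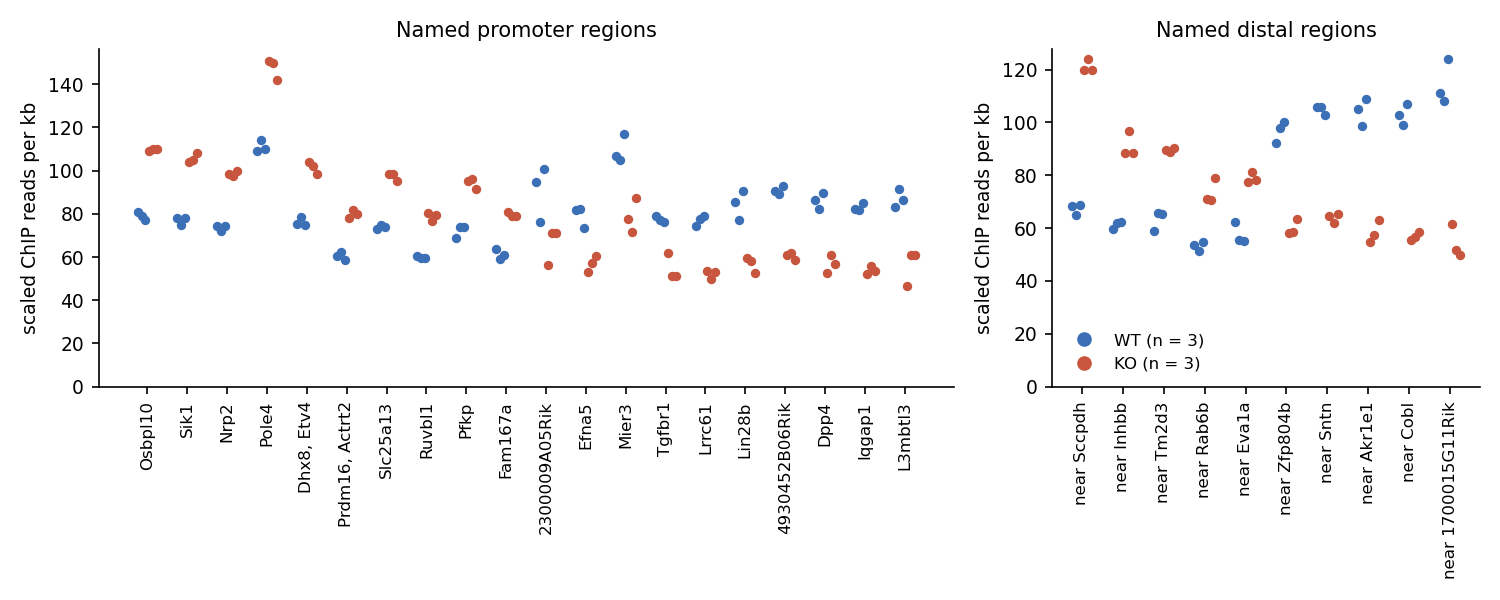
Scaled H3K27ac reads per kb in 3 WT (blue) and 3 KO (red) libraries at the 20 named promoter regions and the 10 named distal regions, labelled by the genes whose starts they hold or by the nearest protein-coding gene. Regions higher in the KO are on the left of each panel and lower ones on the right. The groups do not overlap in any of them, which the rule for naming required.

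Other marks, measured in libraries of their own, were read at the tested distal regions. Of the 114 higher in H3K27ac, 113 held an H3K4me1 region called in all 6 libraries of that mark, and its H3K4me1 log2 fold change was above 0 at 75.2% of them (median 0.08). At the 250 lower in H3K27ac, 230 held such a region and 20.9% were above 0 (median -0.09), and at the 383 not called, 41.3% of 361 were (median -0.02). H3K4me3 peaks found in at least 2 WT libraries overlapped 8.77% of the higher, 2.4% of the lower and 4.7% of the other distal regions, and peaks found in at least 2 KO libraries 22.8%, 4.4% and 10.2%. H3K27me3 islands found in at least 2 WT libraries overlapped 21.9% of the higher, 12% of the lower and 19.1% of the other regions, and those found in at least 2 KO libraries 14.9%, 12% and 14.4%. These shares are descriptions without a test, and wider regions overlap more calls.

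Start sites that lay under an island in 1 genotype alone were few. Of 13694 protein-coding genes with their 5′ end under an island in any library, 10537 were covered in all 6, 199 (1.45%) in all 3 WT libraries and no KO library, and 63 (0.46%) the reverse. Outside the segments the counts were 162 and 43, but at 33 of the 162 and 17 of the 43 another annotated start of the same gene was covered in the other genotype. The strongest WT-only 5′ ends were those of Zdhhc23, Btbd7, Dlg4, a scaffold of synapses, Mpdz and Olfr339. Zdhhc23, a palmitoyltransferase, had 100, 72.1 and 114 raw reads per kb in WT islands of 800 to 1400 bp, with no start covered in the KO, and Mpdz, a scaffold of cell junctions, had 87.5, 86.2 and 95.0 in islands of 800 to 1000 bp. Btbd7 and Dlg4 had another start covered in all 3 KO libraries and Mpdz in 1.

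The strongest KO-only 5′ ends were those of Scarb2, Mdm4, Mdh1b, Zfp119b and 1700109H08Rik. Scarb2, a membrane protein of lysosomes, had 113, 103 and 88.2 raw reads per kb in islands of 24800 to 28600 bp, and Mdm4, an inhibitor of p53, had 69.4, 84.6 and 92.2, both with another start covered in all 3 WT libraries. Mdh1b, a malate dehydrogenase with a single annotated start, had 63.0, 81.2 and 66.7 in islands of 1200 to 2000 bp and no island in the WT. WT-only ends outnumbered KO-only ends, while the lists covered 12296 to 12436 5′ ends in the WT and 11908 to 12062 in the KO. With the same number of top-ranked islands taken from every list, the WT-only count was 150 and the KO-only count 118, and without 1 library they ranged over 256 to 284 and 94 to 115. Leaving out a library loosens the rule, so it can only raise these counts.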

How the data were processed

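H3K27ac ChIP-seq of 3 WT and 3 KO libraries at 0 h was analysed from the deposited lists, with reads of 50 bp single-end per the study's methods. The authors trimmed reads with Trim Galore (0.6.6), marked duplicates, removed multimapping and low-quality reads and blacklisted sequence, and called islands per library with epic2 (SICER, 0.0.52 per the labels) at an FDR under 0.05. The aligner of H3K27ac is not given in the sources used here. For H3K27ac and H3K4me1 the authors deposited counts of ChIP and input reads per island, a score used here only to rank islands, and an FDR (an adjusted p-value). From the H3K27me3 lists only positions were used. From the deposited H3K4me3 peak lists, which give −log10 q values, only positions were used too. H3K9me3 was not used. In the labels 1 antibody stands for both H3K27ac and H3K4me1, while the methods list separate ones. Coordinates are 1-based on GRCm38, with genes of GENCODE M21.

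Islands of chromosomes 1 to 19 were merged where they overlapped by at least 1 bp. Regions called in all 6 libraries were tested with edgeR (4.0.16, R 4.3.3) quasi-likelihood fits with genotype alone, TMM and the log covered length as offset, first where the shortest covered length was at least 0.8 of the longest and then for all, adjusted over all regions of a fit. Scaled reads per kb are reads over covered kb divided by the TMM-scaled size of the library. Library values were compared with two-sided exact permutation tests on log2 densities and ratios and on untransformed shares, numbers and widths, over 20 assignments. The study's methods give a range of sequencing depth for the H3K27ac samples, but the depth of each library is known only as reads in islands. A gene was measured where its 5′ end, or else another start, lay in a region called in all 6. The 10 highest and 10 lowest promoter regions and 5 and 5 distal regions were named outside the segments, among those called, with at least 50 ChIP reads on average and no overlap of groups; up to 4 called genes of each list, and 5 one-genotype starts each way, were named likewise, and further list members were chosen after their values were seen. The members and lists were chosen with earlier results of these data known. The code was tested on simulated data. Some genes of the lists are not reported here. Alternatives included DESeq2 (1.42.0).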

Additional observations from a re-analysis of the deposited data

How the results depend on the processing

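The depth of each library is known only as reads in islands, so densities of single libraries are limited by the lower KO replicate 3. A comparison of 3 against 3 libraries cannot give an exact p under 0.1. The log2 KO over WT of promoter density, 0.052 as reported, was -0.016 with the median over islands and 0.011 to 0.128 without 1 library, the highest without KO replicate 3. That of distal density, 0.002, was -0.003 at an FDR under 0.001, -0.061 with the same number of top-ranked islands, -0.015 with the median over islands, -0.004 with distal over 20 kb, -0.012 without the 3 segments and -0.034 to 0.07 without 1 library, so distal density has no stable direction. The promoter to distal ratio (0.051) was -0.001 with the median over islands, 0.021 (exact permutation p = 0.2) with 5′ ends of protein-coding genes alone, and 0.045 to 0.058 without 1 library.

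Counts of regions higher and lower in the KO were 720 and 500 (promoter) and 114 and 250 (distal). With a length ratio of at least 0.9 they were 312 and 248, and 42 and 83. With no length limit they were 1387 and 462, and 303 and 417. With total ChIP reads and no TMM they were 233 and 1463, and 51 and 435. With 5′ ends of protein-coding genes alone as starts the distal counts were 313 and 470, and with distal over 20 kb 31 and 149. Without 1 library they ranged over 643 to 674 and 423 to 466, and 99 to 108 and 219 to 228. With the replicate block they were 707 and 501, and 112 and 252, the naive list had 12 higher and 2 lower, the formative and primed list 1 and 8, and among the named list genes Ezh1 and Tgfbr1 lost the call (edgeR adjusted p = 0.06 and 0.0639). Same-numbered WT and KO libraries correlated at -0.066, -0.011 and -0.028 in their deviations from the group means. These values cannot tell whether same-numbered clones were derived or processed together.

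For the naive list (13 higher, 2 lower), total ChIP reads and no TMM gave 5 and 4, regions of like length gave 1 lower, and leaving out 1 library gave 11 to 13 higher and 0 to 1 lower. Dppa5a was not tested among the regions of like length. The formative and primed list (1 and 7) gave 0 and 11 without TMM, and 1 and 7 to 8 without 1 library. These list settings were chosen after seeing the data. One-genotype starts (199 WT, 63 KO) were 118 for the KO with the same number of top-ranked islands, and without 1 library 256 to 284 and 94 to 115. Leaving out a library loosens the rule for these starts, so their counts can only rise.

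The log2 fold changes of all 30 named regions kept their direction, and 4 of 457 values lost the call, those of Tgfbr1, 2300009A05Rik and near Tm2d3. List genes reversed with input as an offset at Sall4 (-0.09), Junb (-0.07), Rpl13 (-0.28) and Rbbp4 (0.11), with total ChIP reads at Relb (-0.03), Bcl3 (-0.04), Mtf2 (-0.04), Dnmt1 (-0.01) and Zfp57 (-0.03), and with no length offset at Ezh1 (-0.04), Bmpr1a (0.16), Smad5 (0.30) and Dusp4 (0.04). Of 541 values of named list genes, 59 lost the call with the direction kept and 13 reversed. The cause was not tested.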
